A study of Arabidopsis thaliana with 18 samples.

Results

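BBX18 to BBX25 are 8 genes of Arabidopsis thaliana that encode transcription regulators with B-box zinc fingers, and their transcript levels were read in seedlings of 3 genotypes with and without heat. They were chosen by name, because BBX18 had been seen to fall strongly in the hda6 mutant after heat, and were matched by locus identifier: AT2G21320 (BBX18), AT4G38960 (BBX19), AT4G39070 (BBX20), AT1G75540 (BBX21), AT1G78600 (BBX22), AT4G10240 (BBX23), AT1G06040 (BBX24) and AT2G31380 (BBX25). All 8 were among the 32548 genes of the expression table. The contrast of hda6 with the wild type at 37 °C chose them, so every value that uses it is given below as a description with no p-value. Counts of calls in it stand only beside the share over all genes, and nothing is read from them.

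RNA sequencing was done on whole seedlings aged 7 days, raised on plates at 22 °C in long days (light for 16 h, dark for 8 h). Seedlings were harvested either without treatment or after 1 h at 37 °C. The genotypes were the wild type Col-0, the quadruple mutant labelled sant-null, and hda6, a single line from chemical mutagenesis with EMS. HDA6 encodes a histone deacetylase. Each of the 6 groups of genotype and temperature had 3 libraries, 18 in all. The labels do not say whether libraries of a group came from separate cultures, so every p-value reflects the spread between libraries, which may be technical.

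B-box proteins of this subfamily carry a pair of zinc-binding B-boxes and act in the light-dependent development of seedlings, largely through the transcription factor HY5 and under degradation by the ubiquitin ligase COP1. BBX20, BBX21, BBX22 and BBX23 are known as promoters of photomorphogenesis, while BBX18, BBX19, BBX24 and BBX25 are known to oppose it. BBX18 and BBX23 have also been linked to growth at warm temperature through ELF3, BBX18 to lower survival of heat, and BBX19 to delayed flowering through CONSTANS.

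The 250 bases before the annotated start of 3 of the genes are shown because their responses contrast: BBX18, which rose with heat in Col-0 and was low in hda6, BBX19, its closest relative, which fell with heat, and BBX24, the most abundant. They come from the RefSeq annotation of assembly TAIR10.1 and read 5′ to 3′ on the strand of the gene. BBX18 lies on the plus strand with the window at chr2:9126013-9126262, BBX19 on the plus strand with the window at chr4:18160653-18160902, and BBX24 on the minus strand with the window at chr1:1829984-1830233. Capitals mark the evening element AAAATATCT, a motif bound by clock proteins.
BBX18: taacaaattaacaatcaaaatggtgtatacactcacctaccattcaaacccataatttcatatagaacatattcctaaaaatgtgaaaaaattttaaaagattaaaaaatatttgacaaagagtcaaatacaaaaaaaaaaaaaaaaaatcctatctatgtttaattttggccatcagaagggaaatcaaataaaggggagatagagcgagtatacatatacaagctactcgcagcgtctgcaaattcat
BBX19: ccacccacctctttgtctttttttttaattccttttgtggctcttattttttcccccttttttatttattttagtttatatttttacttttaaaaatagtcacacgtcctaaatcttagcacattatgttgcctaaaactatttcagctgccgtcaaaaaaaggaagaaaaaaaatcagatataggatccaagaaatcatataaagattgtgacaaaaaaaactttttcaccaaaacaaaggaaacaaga
BBX24: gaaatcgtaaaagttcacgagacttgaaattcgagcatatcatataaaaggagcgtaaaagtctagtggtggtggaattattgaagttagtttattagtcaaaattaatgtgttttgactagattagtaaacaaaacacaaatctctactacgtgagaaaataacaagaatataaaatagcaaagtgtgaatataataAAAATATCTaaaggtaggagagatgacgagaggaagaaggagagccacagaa
The window of BBX18 held none of the 5 motifs searched on both strands, and none of the 3 windows overlapped another gene. The heat shock element core was searched as GAANNTTC and, added after the data were seen, as TTCNNGAA. Neither order was present in any of the 8 members, while 9.55% and 7.68% of 27443 promoters of the same length held them. The G-box CACGTG was also in 0 of 8 members, against 6.49% of promoters. ACGT, which lies within the G-box, was present in 3 members (BBX19, BBX20 and BBX24), against 44.1% of promoters. The evening element was present in 1 member, BBX24, against 2.36% of promoters, and began 52 bases before the start. A missing match says only that these letters are not in the window.

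Levels are given in FPKM, read fragments scaled to gene length and library depth, as 1 mean per group from the authors, so the spread between libraries is not known for them and neighbours in an order of levels cannot be compared with it. Changes are log2 differences with their standard error from the authors' deposited tables of DESeq2 tests, which list genes by normalized counts. Heat responses of the mutants and differences between heat responses were derived from those tables. The mean normalized counts of a table summed to 20718679 at the least and 23188234 at the most. The 2 scales differ for heat: among genes at 1 FPKM or more, the heat difference on the log2(FPKM + 0.1) scale was lower than the deposited one by 0.99 at the median in Col-0, and by 1.03 in sant-null and in hda6. In whole seedlings, fewer cells of a type and less RNA per cell cannot be told apart.

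In Col-0 at 22 °C, BBX24 was the highest of the 8 at 78.4 FPKM, and made up 54.5% of their summed level. BBX25 followed at 28.2 FPKM, BBX21 at 16.3, BBX18 at 9.70, BBX22 at 6.0 and BBX19 at 4.51. BBX20 was at 0.714 FPKM and BBX23 at 0.00702. After heat in Col-0 the order changed below BBX24: BBX18 was in place 2 and BBX22 in place 3. In hda6 after heat BBX22 held place 2 and BBX18 place 5. The level of BBX18 as a share of the 8 members' sum went from 6.74% at 22 °C to 16.4% at 37 °C in Col-0, and from 3.29% to 1.93% in hda6.

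**Figure D1:**
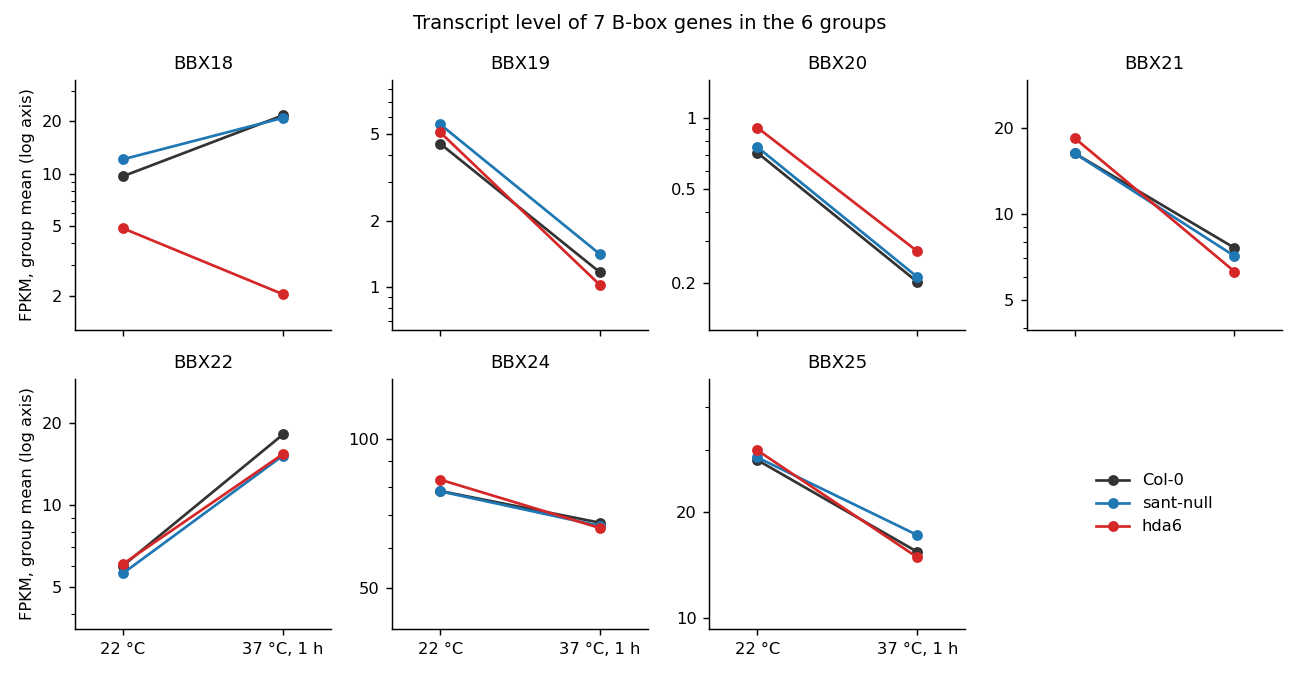
Mean FPKM of each of the 8 genes except BBX23 in the 6 groups, 1 authors' mean per group and no error bar. BBX18 stands at 9.70 and 21.7 FPKM in untreated and heated Col-0, and at 4.87 and 2.04 FPKM in hda6.

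BBX18 was chosen for its low level in heated hda6, so its place among the 8 after heat is fixed by that choice. Its mean was 9.70 FPKM in untreated Col-0 and 21.7 in heated Col-0, 12.1 and 21.0 in sant-null, and 4.87 and 2.04 in hda6. Both hda6 means were the lowest of the 6, and the sant-null and Col-0 means after heat lay close together. With heat in Col-0 the BBX18 transcript rose by 2.17 ± 0.08 on the log2 scale in the authors' deposited table (adjusted p = 3.29e-153), and the difference was 1.15 on the FPKM scale. That comparison shares the heated Col-0 libraries with the contrast that chose BBX18, so it is not independent of the choice. The derived heat response in sant-null was a rise of 1.84 ± 0.12 (adjusted p = 6.36e-52, Wald test). The sant-null heat response minus that of Col-0 was -0.32 ± 0.12 and did not pass the test (adjusted p = 0.286, 95% interval -0.56 to -0.09 before adjustment).

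Already without heat, BBX18 fell in hda6: in the authors' deposited table its log2 difference from Col-0 at 22 °C was -1.04 ± 0.12 (adjusted p = 1.13e-16), a ratio of 0.486. The genes were chosen on hda6 after heat, and this contrast is of the same hda6 line without heat, so it is not independent of the choice. Ordered by this difference, BBX18 was in place 30 from the lowest of 16667 genes at 1 FPKM or more. Genes called lower by at least 2-fold made up 0.154% of those tested. In sant-null at 22 °C BBX18 differed by 0.23 ± 0.09 in the authors' deposited table and was not called (adjusted p = 0.0620). On the FPKM scale centred on the median gene that difference was 0.26. Set against the deposited standard error it had an adjusted p of 0.0450 (Wald test). The spread of FPKM between libraries is not known, so this is no separate test. At 37 °C the sant-null value of BBX18 was -0.09 ± 0.08 in the authors' deposited table (adjusted p = 0.611, 95% interval -0.24 to 0.06). This contrast, and the sant-null difference in heat response above, share the heated Col-0 libraries with the contrast that chose BBX18. Neither is independent of the choice.

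After heat, in the contrast that chose the genes, the log2 difference of hda6 from Col-0 for BBX18 was -3.41 ± 0.12 in the authors' deposited table, a ratio of 0.0942, with normalized counts of 96.0 against 1018. This was place 2 from the lowest of 12878 genes at 1 FPKM or more. The derived heat response of BBX18 in hda6 was -0.20 ± 0.17 on the deposited scale and -1.22 on the FPKM scale. The hda6 heat response minus that of Col-0 was -2.37 ± 0.17 for BBX18.

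**Figure D2:**
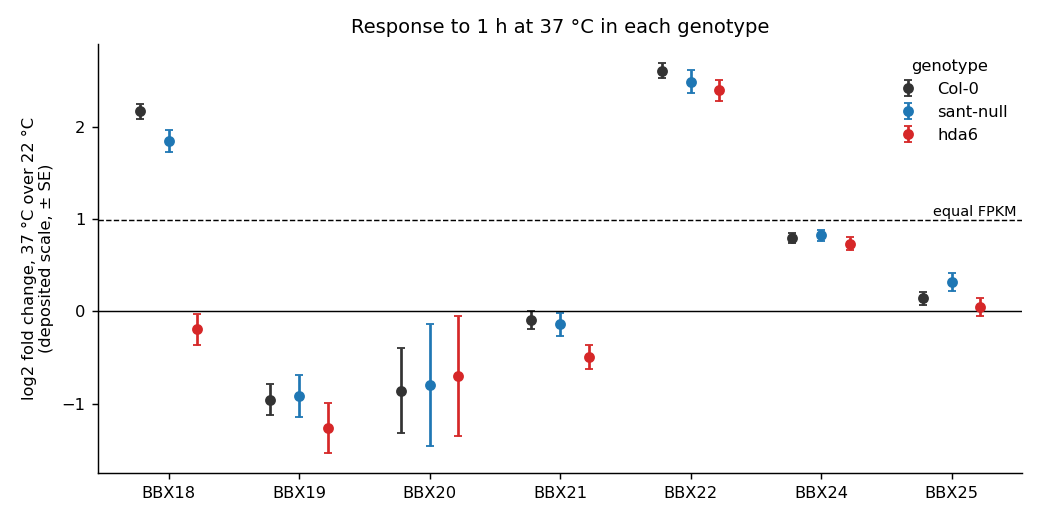
Heat responses of the members except BBX23 as log2 differences between 37 and 22 °C in Col-0, sant-null and hda6, on the deposited scale. BBX18 and BBX22 lie together at 2.17 and 2.61 in Col-0 and apart in hda6, at -0.20 and 2.40.

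The genes next to BBX18 on chromosome 2, looked up after its values were seen, stood at other levels. BBX18 spans chr2:9126263-9127987, 1725 bases on the plus strand. FBA1, a plastid fructose-bisphosphate aldolase that begins 134 bases after it, was at 491 FPKM in untreated Col-0, 535 in heated Col-0, 516 and 577 in sant-null, and 460 and 579 in hda6. In hda6 at 37 °C FBA1 differed from Col-0 by 0.12 ± 0.03 in the authors' deposited table, while AT2G21300, 6285 bases before BBX18, differed by -0.34 ± 0.07. AT2G21260, which lies 18882 bases before BBX18, was at 0.182 FPKM in Col-0 at 22 °C, 4.01 in sant-null and 1.47 in hda6.

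The pattern of BBX18 over the 6 groups was set beside that of every other gene. The root mean square difference of centred log2(FPKM + 0.1) was taken from each of 17479 other genes at 1 FPKM or more in a group. The median distance was 1.35, and 128 genes were under 1. The 5 nearest were AT7SL-1, an RNA of the signal recognition particle, at 0.744, AT1G69430 at 0.744, AT1G75770 at 0.792, TPPJ, a trehalose phosphate phosphatase, at 0.796, and AT1G75860 at 0.798. In FPKM the nearest ones did not all rise with heat as BBX18 did: AT7SL-1 stood at 8.04 FPKM in untreated and 4.96 in heated Col-0, AT1G75860 at 6.01 and 5.2, and TPPJ at 2.09 and 3.90. On the deposited scale AT1G75860 rose with heat in Col-0 by 0.80 ± 0.12 in the authors' deposited table (adjusted p = 2.94e-11). There AT7SL-1, at 0.31 ± 0.17, was not called (adjusted p = 0.108). In heated hda6 AT7SL-1 was at 1.45 FPKM, AT1G75860 at 2.15 and TPPJ at 1.58. The 5 other members at 1 FPKM or more in a group lay at 1.20 to 1.55, while BBX20 and BBX23 were under that level and not compared. These distances describe 6 group means that share libraries and carry no test.

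BBX22, known as a partner of HY5 that promotes photomorphogenesis, had a larger heat response than BBX18 in Col-0 and in sant-null. Its mean was 6.0 FPKM in untreated Col-0 and 18.2 in heated Col-0, 5.63 and 15.2 in sant-null, and 6.09 and 15.4 in hda6. All 3 means after heat lay above all 3 at 22 °C. With heat in Col-0 BBX22 rose by 2.61 ± 0.08 in the authors' deposited table (adjusted p = 7.41e-242), and the derived rise in sant-null was 2.49 ± 0.13 (adjusted p = 5.59e-83, Wald test). At 37 °C BBX22 was lower in sant-null than in Col-0, with a log2 difference of -0.30 ± 0.07 in the authors' deposited table (adjusted p = 0.000843). At 22 °C the sant-null value was -0.18 ± 0.11 in the authors' deposited table (adjusted p = 0.261). In hda6 at 37 °C, as a description, it was -0.24 ± 0.07 in the authors' deposited table.

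BBX24 and BBX25, known to act against HY5, were the most abundant pair at 22 °C in all 3 genotypes. The sign of their heat response differed between the deposited and the uncentred FPKM scale. BBX24 was at 78.4 FPKM in untreated Col-0 and 67.6 in heated Col-0, 78.3 and 66.6 in sant-null, and 82.7 and 66.0 in hda6. The means at 37 °C were the lower ones in each genotype. On the deposited scale BBX24 rose with heat in Col-0 by 0.80 ± 0.05 in the authors' deposited table (adjusted p = 3.17e-47), whereas on the FPKM scale the value was -0.21. Centred on the median gene, that FPKM value was 0.72. The derived heat value of BBX24 in sant-null was 0.82 ± 0.06 (adjusted p = 1.59e-35, Wald test) and -0.23 on the FPKM scale.

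BBX25 was at 28.2 FPKM in untreated Col-0 and 15.4 in heated Col-0, 28.7 and 17.2 in sant-null, and 30.0 and 14.9 in hda6. Its heat value in Col-0 was 0.14 ± 0.07 in the authors' deposited table and was not called (adjusted p = 0.0753), and was -0.86 on the FPKM scale. Centred on the median gene, that FPKM value was 0.07. In sant-null the derived value was 0.32 ± 0.10 (adjusted p = 0.00426, Wald test), with -0.73 on the FPKM scale. The genotype contrasts put neither gene past the test: at 22 °C the hda6 values in the authors' deposited table were 0.03 for BBX24 and 0.04 for BBX25, with 95% intervals of -0.07 to 0.12 and -0.08 to 0.16.

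BBX21, a promoter of photomorphogenesis that acts with HY5, was at 16.3 FPKM in untreated Col-0 and 7.60 in heated Col-0, 16.3 and 7.12 in sant-null, and 18.4 and 6.29 in hda6. The 3 means after heat lay below the 3 at 22 °C. The deposited scale gave a heat value in Col-0 of -0.09 ± 0.10 in the authors' deposited table, not called (adjusted p = 0.430, 95% interval -0.29 to 0.10), and the FPKM scale gave -1.09. In hda6 at 37 °C BBX21 differed by -0.27 ± 0.11 in the authors' deposited table, as a description.

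BBX19, the closest relative of BBX18, moved the other way with heat. Its mean was 4.51 FPKM in untreated Col-0 and 1.16 in heated Col-0, 5.53 and 1.41 in sant-null, and 5.08 and 1.02 in hda6. All 3 means fell together and the genotypes lay close at each temperature. In Col-0 BBX19 fell by 0.96 ± 0.16 in the authors' deposited table (adjusted p = 1.77e-08), or -1.87 on the FPKM scale. In sant-null the derived fall was -0.92 ± 0.23 (adjusted p = 0.00023, Wald test). The ratio of BBX18 to BBX19 in FPKM went from 2.15 to 18.6 with heat in Col-0, from 2.19 to 14.9 in sant-null and from 0.958 to 2.00 in hda6.

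BBX20, a promoter of photomorphogenesis tied to brassinosteroid signalling, was under 1 FPKM in every group. It was at 0.714 FPKM in untreated Col-0 and 0.201 in heated Col-0, 0.755 and 0.211 in sant-null, and 0.914 and 0.272 in hda6. The deposited heat value in Col-0 of -0.86 ± 0.46 was not called in the authors' deposited table (adjusted p = 0.0939). BBX23 was listed at 0.00702 to 0.0178 FPKM in 4 groups and at 0 in sant-null and hda6 at 37 °C, so no direction can be read from it.

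Counted together, 3 of the 8 members tested rose with heat in Col-0 (BBX18, BBX22 and BBX24) and 1 fell (BBX19), where 60.0% of 23195 genes were called, 30.1% higher and 29.9% lower. Counted from FPKM with the same errors, 2 were called higher and 5 lower, where 1263 of 23195 genes were called higher and 15272 lower. The split of directions thus differed between the deposited and the uncentred FPKM scale, for the members and over all genes. At the median of genes at 1 FPKM or more, heat in Col-0 gave -0.93 on the FPKM scale and 0.05 on the deposited one. Centred on the median gene, FPKM put BBX24 at 0.72, BBX25 at 0.07 and BBX21 at -0.16, with the signs of the deposited scale. With heat in sant-null 4 rose and 1 fell, where 47.6% of genes were called, 26.1% higher and 21.5% lower. FPKM again gave 2 higher and 5 lower, where 1002 of 23184 genes were called higher and 14143 lower. At 22 °C the authors' deposited table called 0 of 7 members in sant-null with DESeq2, where 17.8% of genes were called, and 2 had an unadjusted p under 0.05. At 37 °C it called 1 of 7 lower, BBX22, against 4.05% called lower, with 8.77% called either way. In hda6 at 22 °C 1 of 7 was called lower, BBX18, against 4.5% called lower and 10.6% in all. The difference between the heat responses of sant-null and Col-0 was called for 0 of 8 members by the derived Wald test, with 1 at an unadjusted p under 0.05, and for 0.835% of genes. In the contrasts that chose the genes, hda6 at 37 °C had 2 of 7 called lower (BBX18 and BBX22), where 18.5% of genes were called and 9.41% were lower. Heat in hda6 had 4 of 8 called, where 47.4% of genes were called, and the hda6 heat response minus that of Col-0 had 2 of 8, BBX18 and BBX21, where 4.66% were called. Nothing is read from these 3 counts.

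**Figure D3:**
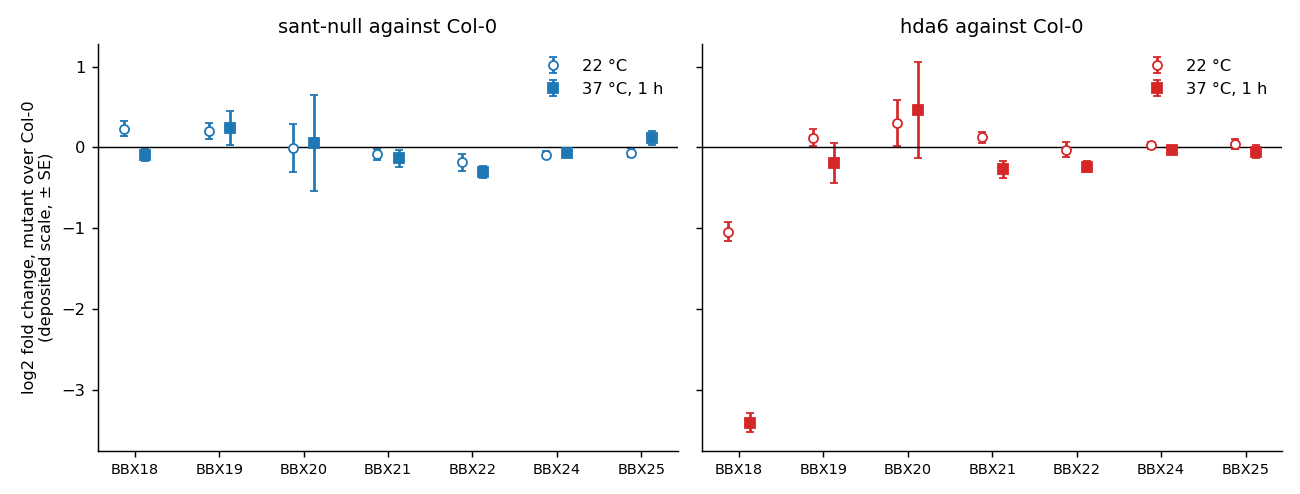
Difference of sant-null and of hda6 from Col-0 for each member except BBX23 at 22 and 37 °C, as log2 differences on the deposited scale. BBX18 in hda6 lies at -1.04 and -3.41, the latter in the contrast that chose it. The other members drawn lie from -0.30 (BBX22 in sant-null at 37 °C) to 0.46 (BBX20 in hda6 at 37 °C).

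The other 24 B-box genes of Arabidopsis, from the CONSTANS group to the small single B-box proteins, showed both directions with heat. Of 21 tested in Col-0, 9 rose and 5 fell, with a median of 0.46, where all genes had a median of -0.09. Over all genes 30.1% were called higher and 29.9% lower. Counted from FPKM, 4 rose and 11 fell, where 1263 of 23195 genes were called higher and 15272 lower. BBX8 rose by 3.81 ± 0.14 (adjusted p = 1.65e-168) and BBX17 by 1.65 ± 0.20 (adjusted p = 1.4e-15) in the authors' deposited table. BBX28, known to inhibit HY5, fell by 1.38 ± 0.09 in the authors' deposited table (adjusted p = 4.74e-52). In hda6 at 22 °C 7 of 21 fell and 0 rose by DESeq2, with 8 lower and 0 higher at an unadjusted p under 0.05, against 4.5% of genes called lower. On the FPKM scale 3 of the 21 were called lower and 0 higher, where 465 of 23447 genes were called lower. The difference was -0.36 ± 0.06 for BBX14 (adjusted p = 1.06e-08) and for BBX16 -0.35 ± 0.06 (adjusted p = 3.78e-06) in the authors' deposited table. At 37 °C, as a description, 11 of 20 were called lower in hda6, where 9.41% of genes were, and the median was -0.39. BBX29 at -1.11 ± 0.35 and BBX17 at -0.90 ± 0.22 were the lowest of those called there at 1 FPKM or more, in the authors' deposited table. The small B-box proteins BBX30, BBX31 and BBX32 were at -0.51 to 0.00 in that contrast.

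**Figure D4:**
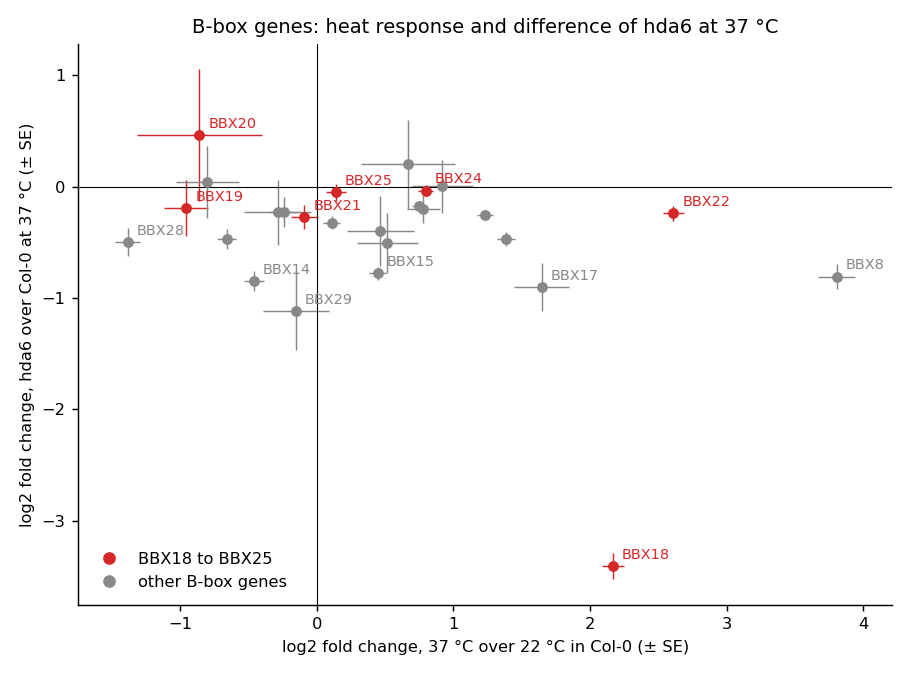
Heat response in Col-0 and difference of hda6 from Col-0 at 37 °C for 26 B-box genes with a normalized count of at least 10 in both comparisons, as log2 differences on the deposited scale. BBX18 lies at 2.17 for heat and -3.41 for hda6, the latter in the contrast that chose it. Its standing apart there was thus fixed by the choice. The next lowest of the genes plotted for hda6 at 37 °C, BBX29, is at -1.11.

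Of the partners of the B-box proteins, HY5, COP1, ELF3 and PIF4 were not called in hda6 at 22 °C, with log2 differences of -0.03 to 0.12 in the authors' deposited table. HY5, which works with BBX21 and BBX22, rose with heat in Col-0 by 1.15 ± 0.12 in the authors' deposited table (adjusted p = 8.71e-20), and by 0.15 on the FPKM scale. PIF4, which drives growth in warmth, rose by 1.26 ± 0.06 in the authors' deposited table (adjusted p = 8.27e-92), or 0.25 on the FPKM scale. COP1 at -0.14 ± 0.10 (adjusted p = 0.212) and ELF3 at 0.07 ± 0.17 were not called with heat in the authors' deposited table. Of 21 light signalling regulators, 6 rose and 10 fell with heat in Col-0, where 30.1% of genes were called higher and 29.9% lower. The FPKM scale counted 1 and 19, where it called 1263 of 23195 genes higher and 15272 lower. PIF4's heat response was smaller in sant-null than in Col-0, with a difference of -0.30 ± 0.08 (adjusted p = 0.0315, derived Wald test). In hda6 at 37 °C ELF3 differed by -0.56 ± 0.21 in the authors' deposited table, as a description.

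Of 11 flavonoid and anthocyanin genes, which HY5 and BBX proteins are known to act on, 4 rose, 0 fell and 7 were not called in sant-null at 22 °C by DESeq2, with 5 higher and 0 lower at an unadjusted p under 0.05. Over all genes 8.82% were called higher. DFR rose by 0.68 ± 0.10 (adjusted p = 2.51e-10) and LDOX by 0.66 ± 0.10 (adjusted p = 2.51e-09), both enzymes of anthocyanin synthesis, in the authors' deposited table. All 4 heat genes reported under BBX18 control rose with heat in Col-0, where 30.1% of genes were called higher. They were listed as heat genes, so this rise was fixed by the list. Among the 4 was APX2, an ascorbate peroxidase, at 10.90 ± 0.20 in the authors' deposited table. At 22 °C 3 of the 4 were called lower in hda6, against 4.5% of genes. In sant-null 2 of the 4 were, against 2096 of 23342 genes. On the FPKM scale 1 was called lower in each mutant, where 465 of 23447 genes were in hda6 and 775 of 23342 in sant-null. DGD1, an enzyme of galactolipid synthesis in that list, was at 14.9 FPKM in untreated Col-0 and 27.9 in heated Col-0, and at 13.9 and 19.6 in hda6. As a description, its hda6 heat response minus that of Col-0 was -0.36 ± 0.08. The same difference was 1.04 ± 0.11 for HSP101 and 6.26 ± 1.32 for APX2, which was at 0 FPKM in untreated hda6. Of the 4 genes, 2 were called higher and 1 lower for it, where 4.66% of genes were called.

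Markers of other tissues moved with the groups, and their part in these results was not tested. Of 10 green tissue markers 8 fell in hda6 at 22 °C and 0 rose by DESeq2, with 9 lower and 0 higher at an unadjusted p under 0.05, where 4.5% of genes were called lower. On the FPKM scale 4 of these markers were called lower and 0 higher, where 465 of 23447 genes were called lower. The fall was not particular to hda6: in sant-null at 22 °C DESeq2 called 7 of the 10 markers lower and 0 higher. Of all genes, 2096 of 23342 were called lower there. From FPKM, 5 markers fell in sant-null and 1 rose, where 775 of 23342 genes fell. The median log2 difference of the markers from Col-0 was -0.16 in hda6 and -0.19 in sant-null on the deposited scale. The summed level of the green tissue markers was 28502 FPKM in Col-0 at 22 °C. Of 10 root markers 4 rose in hda6 at 22 °C, where 6.1% of genes were called higher. With heat in Col-0, 8 root markers fell and 1 rose, where 29.9% of genes were called lower and 30.1% higher. The sum of the root markers went from 55.9 to 13.9 FPKM, with 2 under 1 FPKM in every group. Of 11 clock genes 6 rose and 1 fell with heat in Col-0, where 60.0% of genes were called. On the FPKM scale 2 of the clock genes were higher and 6 lower, where 1263 of 23195 genes were called higher and 15272 lower.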

How the data were processed

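RNA sequencing of 18 libraries in 6 groups of 3 was summarised by the authors. The submitters' processing notes list the TAIR10 genome with DESeq2 1.30.1, featureCounts 2.0.1, HISAT2 2.2.1 and CASAVA. Settings, strand and the handling of reads with several matches: not given in the sources used here. The deposited FPKM table holds 1 mean per group. The 5 deposited comparison tables hold, per the file headers, baseMean (a signal of normalized counts), log2 fold change, Wald score and p-value, and these deposited DESeq2 tests, with adjusted p under 0.05, are the main tests. From them 4 comparisons were derived: heat in each mutant and the differences between heat responses, by Wald tests on the deposited log2 values with Benjamini-Hochberg adjustment over all genes and the squared errors of the 2 mutant tables summed, which for heat in a mutant is an upper bound. The calculation was run on simulated data in which all comparisons shared the same Col-0 levels. Differences in normalization between the comparisons were thus not tested. Python 3.11.15, pandas 2.3.3, numpy 2.4.6, scipy 1.17.1 and matplotlib 3.10.9 were used.

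Library totals are not given in the files used here, so depth is known only as summed normalized counts. Gene names come from RefSeq on TAIR10.1, where all 32548 identifiers matched. The members and lists were chosen with earlier results of these data known. Named genes are the members, at most 2 called genes per list and direction with the largest change at 1 FPKM or more, HY5, COP1, ELF3, PIF4, BBX28 and BBX30 to BBX32, and the 5 genes nearest BBX18. Alternatives were log2(FPKM) with pseudocounts of 0.1 and 1, centring on the median gene, an adjusted p of 0.01 and a larger error for derived values. Every call on an FPKM scale set the difference of group means against the standard error of the deposited scale. Such calls show how a result depends on scale and do not measure the spread of FPKM between libraries.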

Additional observations from a re-analysis of the deposited data

Results flagged for a closer look

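PIF4 responded to heat less in sant-null than in Col-0, with a difference of -0.30 on the log2 scale with an adjusted p of 0.0315 in the derived Wald test, and was picked out because the heat responses of the genotypes differed. The same comparison between hda6 and Col-0 picked out BBX18 at -2.37 and BBX21 at -0.40. Both of these use the contrast that chose the genes and are descriptions.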

How the results depend on the processing

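Of 189 member values under the 3 FPKM scalings, 29 changed sign, 17 of them in values called on neither scale. Called heat responses changed sign for BBX24 and BBX25. With a pseudocount of 0.1 BBX24 was at -0.21 (Col-0), -0.23 (sant-null) and, for hda6, -0.33, and BBX25 at -0.86, -0.73 and -1.01. With a pseudocount of 1 BBX24 was at -0.21, -0.23 and -0.32, and BBX25 at -0.83, -0.70 and -0.97. The uncalled sign changes, with pseudocounts of 0.1 and 1, were in sant-null at 22 °C for BBX20 (0.071 and 0.034) and BBX25 (0.025 and 0.024), in hda6 at 22 °C for BBX22 (0.020 and 0.018), in the sant-null difference of heat response for BBX19 (-0.033 and -0.090), BBX20 (-0.024 and -0.022) and BBX24 (-0.019 and -0.019), and in that of hda6 for BBX20 (-0.014 and -0.077). Centring on the median gene left 3 sign changes, all uncalled: BBX25 with heat in hda6 (-0.0044), BBX20 in sant-null at 22 °C (0.0092) and BBX19 in the sant-null difference (-0.0048). Direction and side of the threshold were kept by 59 of 63 values with centring, 42 with a pseudocount of 0.1 and 45 with a pseudocount of 1. With the direction kept, 1, 8 and 4 values newly passed the threshold and, with a pseudocount of 1, 1 value no longer passed it. The count of members called went from 4 to 7 for heat in Col-0, from 0 to 2 for sant-null at 22 °C and from 4 to 7 for heat in hda6 on the FPKM scale with a pseudocount of 0.1; for the difference of hda6 in heat response it went from 2 to 1, both at an adjusted p of 0.01 and with the error of heat in Col-0 added. The other 26 of 31 counts stayed within 1.5 times. No paired analysis was possible because the columns are group means and carry no replicate number. For the same reason leaving out each library, the fit per library and limma were not run.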
